A study of Mus musculus with 10 samples.

Results

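RNA levels of 10 genes for centriole duplication and centrosome function were examined in serum-starved NIH3T3 cells, a mouse fibroblast line, with or without Lin37. Lin37 is a subunit of the MuvB core of the DREAM complex, which represses cell cycle genes in quiescent cells. The 10 genes were Plk4, Stil, Sass6, Cep152, Cep192, Cenpj, Cep135, Cntrob, Pcnt and Spag5, of 45232 genes in the deposited table, and all 10 passed the filter on low values. They were chosen by a written list of centriole and centrosome genes that was drawn up with KO against rescue values of these same libraries in view, Plk4 above all. Their KO against rescue values are therefore given as a description without a p-value, with the members that pass the test across all genes counted only beside the share of all genes that pass. Differences in level between the clones, which the choice did not use, were tested. Differences between the clones in the KO effect are built from the KO against rescue values and are likewise a description.

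Both clones were single cell lines in which a Cas9 nickase had placed InDels in Lin37, at exon 4 in one clone and at exon 6 in the other. Each clone carried a doxycycline-inducible episome, which expressed luciferase in the KO groups and wild-type Lin37 in the rescue groups, so that the KO and rescue groups of a clone shared its mutated alleles, all 4 groups were Lin37-mutated in the genome, and no parental cells were compared. The cells were grown in 10% FCS and held without serum (0% FCS) for 60 h before total RNA was depleted of rRNA and sequenced. The exon 4 clone had 2 KO and 2 rescue libraries, each a biological replicate. The exon 6 clone had 3 KO and 3 rescue libraries, of which the third is labelled a technical replicate of the second, so those were averaged and n was 2 biological replicates per group and 4 per genotype. Levels are RPKM (reads per kilobase of gene, scaled by the authors to the size of the library) after rescaling each library by its median ratio to the others, and differences are on the log2(RPKM + 0.5) scale, which understates the change of genes at low levels.

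A centriole is duplicated once per cell cycle, when a single procentriole is built against the wall of each existing centriole. The kinase Plk4 is brought to the centriole by the scaffold proteins Cep192 and Cep152, where it phosphorylates Stil, and Stil with Sass6 assembles the cartwheel that gives the procentriole its symmetry. Cenpj and Cep135 then build and stabilise the microtubule wall, Cntrob helps the daughter centriole to elongate, and Pcnt organises the pericentriolar material that nucleates microtubules. Spag5 (astrin) is counted here with the centrosome genes, and it acts at kinetochores and spindle poles in mitosis.

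The libraries carried the labelled genotype. Rescaled Lin37 was 0.268 to 0.417 RPKM in the 5 KO libraries and 2.12 to 5.11 RPKM in the 5 rescue libraries. The fall in KO was 2.25 on the log2 scale (SE 0.17, limma with Benjamini-Hochberg adjustment, adjusted p = 0.000293). The rescue level differed between the clones, at 2.12 to 2.54 RPKM in the exon 4 clone and 4.41 to 5.11 RPKM in the exon 6 clone. All 9 fibroblast markers were above 0 in every library, with Col1a1 at 98.7 to 324 RPKM, Col1a2 at 56.9 to 154 RPKM and Fn1 at 96.3 to 276 RPKM. Thy1, with the lowest value, was 0.531 to 1.83 RPKM in the exon 4 clone and 7.41 to 9.49 RPKM in the exon 6 clone. Some markers of other cells, such as Cdh1, Cd68 and Des, were above 0 in every library too. The 17 markers of epithelial, blood, endothelial and muscle cells summed to 1.57 to 2.07 RPKM in KO and 0.851 to 2.69 RPKM in rescue. The most abundant was Cd68 at 0.495 to 1.44 RPKM, except in rescue replicate 2 of the exon 4 clone. Cd3e stood at 0.809 RPKM there, against 0.605 RPKM for Cd68, and at or below 0.0372 RPKM elsewhere. Cldn4 was at 0 in 9 of 10 libraries. The rescaling factors ran from 0.601 to 2.70 in KO and from 0.324 to 1.73 in rescue, and without rescaling the median of all genes lay 0.64 higher in KO on the log2 scale. The depth of the libraries is unknown, because the files hold no counts.

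DREAM is known to bind E2F sites and cell cycle homology regions (CHR), so the bases around the start of each gene are shown for the members in which such letters were found. RefSeq promoter windows of GRCm38.p6, from 250 bases before to 50 bases after the start, were found for 8 of the 10 genes. Capitals mark matches to an E2F site (TTNNCGC, where each N is C or G) or a CHR (TTNNAA, where the first N is T or C and the second is A or G) on either strand, and no match overlapped another. The 250 bases before the start are given for Plk4 (chr3:40799701-40799950, plus strand), Stil (chr4:114999868-115000117, plus strand), Cep152 (chr2:125625114-125625363, minus strand) and Pcnt (chr10:76442913-76443162, minus strand), windows that held no annotated exon.
Plk4: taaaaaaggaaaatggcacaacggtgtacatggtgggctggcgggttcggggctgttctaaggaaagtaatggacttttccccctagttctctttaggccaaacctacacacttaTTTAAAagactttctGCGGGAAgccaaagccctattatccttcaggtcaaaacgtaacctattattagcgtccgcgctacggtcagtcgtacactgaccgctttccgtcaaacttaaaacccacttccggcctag
Stil: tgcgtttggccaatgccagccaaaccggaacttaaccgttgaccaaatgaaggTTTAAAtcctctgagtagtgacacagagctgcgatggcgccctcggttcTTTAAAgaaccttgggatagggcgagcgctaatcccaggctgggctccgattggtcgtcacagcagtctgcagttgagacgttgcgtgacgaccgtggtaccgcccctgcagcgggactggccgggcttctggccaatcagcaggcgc
Cep152: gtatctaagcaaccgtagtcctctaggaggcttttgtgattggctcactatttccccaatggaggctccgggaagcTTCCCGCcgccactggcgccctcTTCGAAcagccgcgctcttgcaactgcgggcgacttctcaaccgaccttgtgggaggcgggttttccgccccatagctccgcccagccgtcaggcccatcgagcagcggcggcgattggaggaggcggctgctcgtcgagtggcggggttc
Pcnt: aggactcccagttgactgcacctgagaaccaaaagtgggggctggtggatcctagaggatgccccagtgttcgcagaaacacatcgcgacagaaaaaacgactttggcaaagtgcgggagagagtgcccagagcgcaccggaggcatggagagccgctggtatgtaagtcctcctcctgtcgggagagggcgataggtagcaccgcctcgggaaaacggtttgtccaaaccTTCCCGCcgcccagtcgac

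The remaining matches are shown with a few bases on each side, for the Stil E2F letters after its start (chr4:115000141-115000167, plus strand), the Sass6 CHR (chr3:116594789-116594814, plus strand) and the Spag5 CHR (chr11:78301584-78301609, plus strand).
Stil, after the start: gcgagcgcTTGCCGCctcggTTCCCGC
Sass6: gctgggtcctTTTGAAagcctggctc
Spag5: gcgtattgggTTCAAAtagaggcggc

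In the Plk4 window a CHR began at base -135 and an E2F site, read on the opposite strand, at base -120. Stil held 2 CHRs, at -197 and -148, and E2F letters at 32 and 44 after the start, while Cep152 held an E2F site at -174 and a CHR at -151. Pcnt held an E2F site at -19 without a CHR, and Sass6 and Spag5 a CHR without an E2F site, at -159 in Sass6 and at 4 after the start in Spag5. Neither kind of letters was found in the windows of Cenpj and Cep135. E2F letters were thus in 4 of 8 member windows and in 9.57% of all 32851 promoter windows, CHR letters in 5 of 8 and 28.8%, and both together in 3 of 8 and 1.75%. The CCAAT letters of the NF-Y box, on either strand, were in 5 of 8 member windows and 37.4% of all. Of 80 matched windows of other centrosome and spindle pole genes, 27 held E2F letters, 22 CHR letters and 44 CCAAT letters. These are matches of letters and not measured binding sites.

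**Figure D1:**
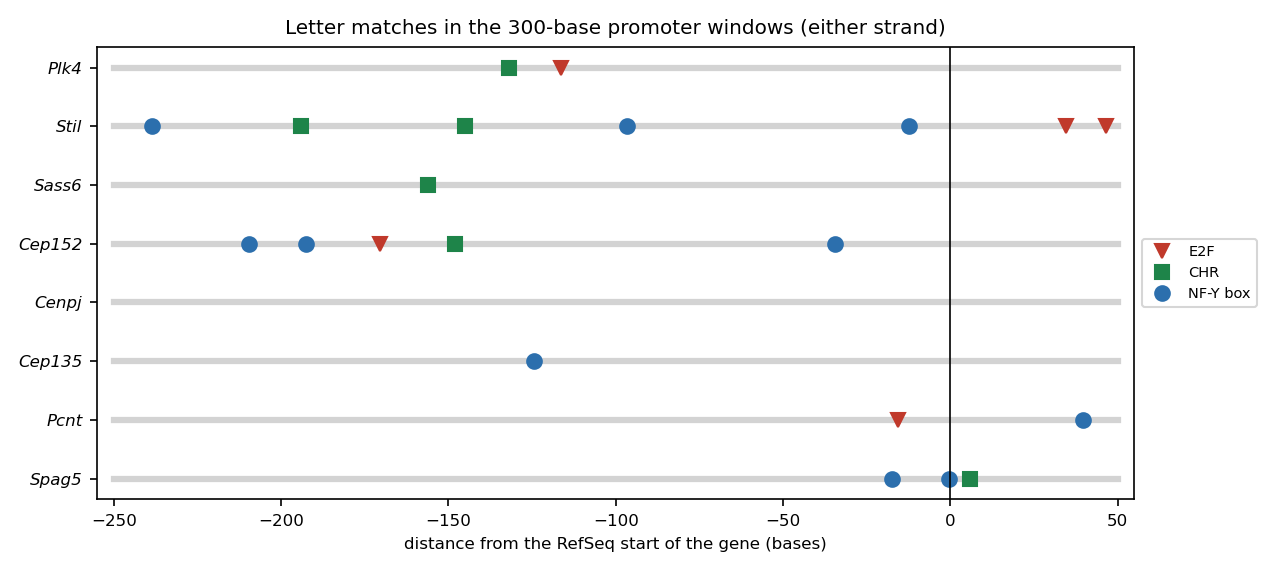
Positions of the E2F (triangles), CHR (squares) and NF-Y box (circles, the CCAAT letters) matches in the 300-base windows of the 8 members with a RefSeq promoter, in bases from the start of the gene. Plk4 and Cep152 hold an E2F site and a CHR close together before the start, and the Cenpj window holds no match.

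Plk4, Stil and Sass6, the kinase and the cartwheel proteins, were between 0.726 and 1.18 RPKM in every KO library and at or below 0.451 RPKM in every rescue library. Plk4 (chr3:40800019-40816883 of GRCm38, plus strand) was 0.979 and 0.799 RPKM in the KO libraries of the exon 4 clone and 0.759, 0.932 and 1.06 RPKM in those of the exon 6 clone. Its rescue libraries stood at 0.160 and 0 RPKM in the exon 4 clone and at 0.0855, 0.451 and 0.239 RPKM in the exon 6 clone. The lowest KO library was thus above the highest rescue library. The fitted difference of Plk4 over both clones was 1.12 (SE 0.16) on the log2 scale, and KO was higher in 4 of 4 same-numbered pairs.

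The 0 of Plk4 is in the library with the fewest entries at 0, rescue replicate 2 of the exon 4 clone, where 7920 of the 45232 genes were listed at 0. Plk4 was 1 of 8 genes that were at 0 there and at 0.05 RPKM or more as deposited in each of the other 9 libraries. Such genes, at 0 in a single library, numbered from 1 to 25 in the other libraries. Whether the 0 of Plk4 is a failed estimate was not tested. The 3 rescue replicates with a value averaged 0.197 ± 0.133 RPKM (SD, n = 3) against 0.884 ± 0.122 RPKM in KO (SD, n = 4), which is 4.49-fold. Without that replicate of the exon 4 clone, or any other of the 8, the Plk4 difference lay between 1.01 and 1.25.

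Stil, the Plk4 substrate that links the kinase to the cartwheel (chr4:115000159-115043196, plus strand), was 0.726 and 1.01 RPKM in the KO libraries of the exon 4 clone and 1.07, 1.00 and 0.788 RPKM in those of the exon 6 clone. The rescue libraries held 0.198 and 0.214 RPKM in the exon 4 clone and 0.0644, 0.149 and 0.148 RPKM in the exon 6 clone. The lowest KO library stood well clear of the highest rescue library. The mean was 0.925 ± 0.150 RPKM in KO against 0.156 ± 0.0673 RPKM in rescue (SD, n = 4 each), 5.92-fold, with a fitted difference of 1.12 (SE 0.12).

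Sass6, the structural protein of the cartwheel (chr3:116594982-116631004, plus strand), followed with 0.985 and 0.954 RPKM in the KO libraries of the exon 4 clone and 1.18, 1.06 and 0.832 RPKM in those of the exon 6 clone. Its rescue libraries were at 0.239 and 0.276 RPKM in the exon 4 clone and at 0.121, 0.218 and 0.159 RPKM in the exon 6 clone, so the groups did not overlap. Mean Sass6 was 1.02 ± 0.110 RPKM in KO against 0.206 ± 0.0669 RPKM in rescue (SD, n = 4 each), 4.93-fold, with a fitted difference of 1.10 (SE 0.11). In the annotation 24.5% of Sass6 exon bases lie opposite the antisense gene Gm42893 and 6.36% opposite Trmt13, and whether reads were counted by strand is not given in the sources used here. Gm42893 was listed at 0 in every library, and Trmt13 was 0.316 ± 0.0711 RPKM in KO against 0.292 ± 0.0655 RPKM in rescue (SD, n = 4 each).

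**Figure D2:**
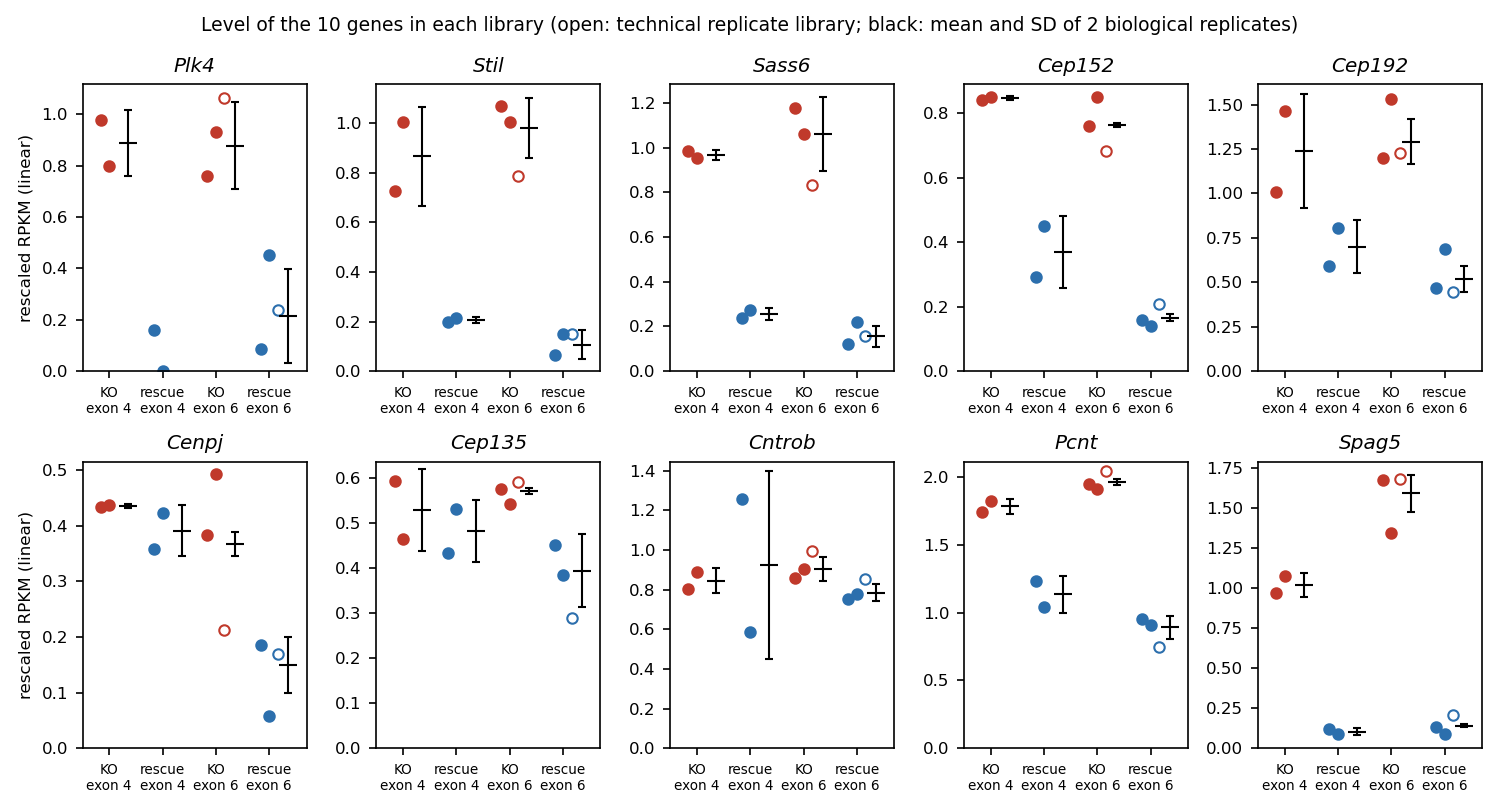
Rescaled RPKM (linear axis) of the 10 genes in each of the 10 libraries, KO in red and rescue in blue, with open circles for the technical replicate libraries and black marks for the mean and SD of the 2 biological replicates (left out for Plk4 in the exon 4 rescue group, where a library was listed at 0). The KO and rescue points are apart in both clones for Plk4, Stil, Sass6, Cep152, Cep192, Pcnt and Spag5 and with the clones pooled they overlap for Cenpj, Cep135 and Cntrob.

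The scaffold proteins that recruit Plk4 were also higher in KO, with smaller differences. Cep152 was 0.841 and 0.851 RPKM in the KO libraries of the exon 4 clone and 0.759, 0.849 and 0.684 RPKM in those of the exon 6 clone, against 0.291 and 0.449 RPKM and 0.159, 0.140 and 0.207 RPKM in the rescue libraries of the same clones. The rescue libraries of the exon 6 clone were all below those of the exon 4 clone. Mean Cep152 was 0.804 ± 0.0483 RPKM in KO against 0.268 ± 0.134 RPKM in rescue (SD, n = 4 each), 3.00-fold, with a fitted difference of 0.78 (SE 0.11).

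Cep192, which also recruits pericentriolar material, had KO libraries at 1.01 and 1.46 RPKM in the exon 4 clone and at 1.20, 1.53 and 1.22 RPKM in the exon 6 clone. Its rescue libraries were 0.594 and 0.805 RPKM in the exon 4 clone and 0.465, 0.687 and 0.447 RPKM in the exon 6 clone. The gap between the lowest KO and the highest rescue library, both of the exon 4 clone, was narrower than the spread among the KO libraries. The fitted difference was 0.67 (SE 0.13), from 1.26 ± 0.201 RPKM in KO and 0.608 ± 0.143 RPKM in rescue (SD, n = 4 each), 2.08-fold. The ratio of Cep192 to Cep152 was 1.58 ± 0.265 in KO and 2.51 ± 0.704 in rescue (SD, n = 4 each), and the highest KO ratio, 1.799, was just above the lowest rescue ratio, 1.795.

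The 3 genes of the centriole wall and of elongation overlapped between the genotypes when the clones were pooled. Cenpj, the tubulin-binding protein that sets centriole length, was 0.433 and 0.437 RPKM in the KO libraries of the exon 4 clone and 0.359 and 0.423 RPKM in its rescue libraries. The exon 6 clone had KO libraries at 0.382, 0.493 and 0.212 RPKM and rescue libraries at 0.186, 0.0575 and 0.170 RPKM. The genotypes were apart within each clone, narrowly in the exon 4 clone, but the lowest KO library, a technical replicate, lay below both rescue libraries of the exon 4 clone. The fitted difference was 0.24 (SE 0.11), and it was 0.07 (SE 0.19) in the exon 4 clone alone and 0.42 (SE 0.12) in the exon 6 clone alone.

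Cep135, which ties the cartwheel to the microtubule wall, was 0.550 ± 0.0575 RPKM in KO against 0.438 ± 0.0798 RPKM in rescue (SD, n = 4 each), with libraries from 0.465 to 0.593 RPKM in KO and from 0.290 to 0.531 RPKM in rescue. It was higher in KO in 3 of 4 pairs, with a fitted difference of 0.16 (SE 0.10). Cntrob, the daughter centriole protein, was 0.875 ± 0.0608 RPKM in KO against 0.855 ± 0.286 RPKM in rescue (SD, n = 4 each), and its difference of 0.04 (SE 0.15) was below its error. The 2 rescue libraries of the exon 4 clone set the spread of Cntrob, at 1.26 and 0.588 RPKM, above and below every KO library, and without the second of them the difference became -0.08.

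Pcnt, the large scaffold of the pericentriolar material, had the highest level of the 10 genes in both genotypes. The level was 1.74 and 1.82 RPKM in the KO libraries of the exon 4 clone and 1.95, 1.91 and 2.05 RPKM in those of the exon 6 clone. In the rescue libraries the level was 1.23 and 1.04 RPKM in the exon 4 clone and 0.952, 0.911 and 0.749 RPKM in the exon 6 clone. No rescue library reached a KO library. Mean Pcnt was 1.87 ± 0.109 RPKM in KO against 1.01 ± 0.169 RPKM in rescue (SD, n = 4 each), 1.85-fold, with a fitted difference of 0.65 (SE 0.10). Of its exon bases 3.12% lie opposite 1700094J05Rik, which was 0.0199 ± 0.0291 RPKM in KO against 0.00910 ± 0.00921 RPKM in rescue (SD, n = 4 each).

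Spag5, the spindle and kinetochore protein, showed the widest difference of the 10. Its level was 0.966 and 1.07 RPKM in the KO libraries of the exon 4 clone and 1.67, 1.34 and 1.68 RPKM in those of the exon 6 clone. Its rescue libraries lay between 0.0874 and 0.205 RPKM. Every KO library of the exon 6 clone was above both KO libraries of the exon 4 clone, whereas the rescue libraries of the clones overlapped. Mean Spag5 was 1.30 ± 0.339 RPKM in KO against 0.123 ± 0.0257 RPKM in rescue (SD, n = 4 each), 10.6-fold, with a fitted difference of 1.52 (SE 0.11).

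**Figure D3:**
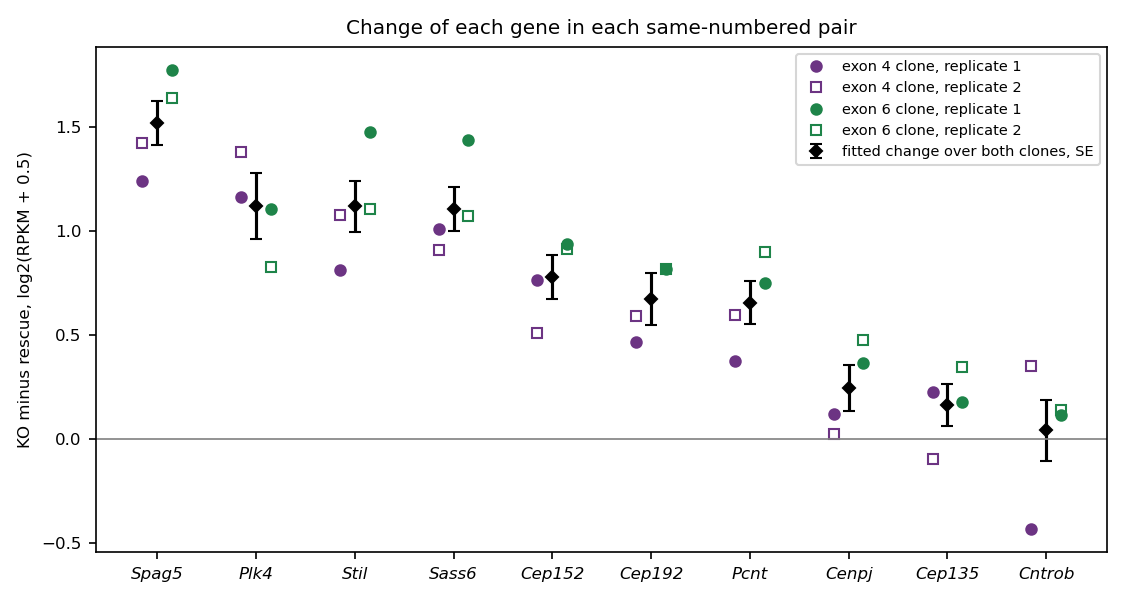
KO minus rescue on the log2(RPKM + 0.5) scale for each of the 10 genes in each same-numbered pair of replicates (purple, exon 4 clone; green, exon 6 clone), with the fitted difference over both clones and its SE in black. Spag5 is highest at 1.52, Plk4, Stil and Sass6 lie at 1.10 to 1.12, and for Cep135 and Cntrob 1 pair of the exon 4 clone lies below 0.

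In KO the order of the mean levels was Pcnt, Spag5, Cep192, Sass6, Stil, Plk4, Cntrob, Cep152, Cep135 and Cenpj. Only Pcnt from Spag5, Cep152 from Cep135 and Cep135 from Cenpj were apart by more than their SDs among the neighbours in that order. In rescue the order was Pcnt, Cntrob, Cep192, Cep135, Cenpj, Cep152, Sass6, Stil and Spag5, and no neighbours were apart by more than their SDs. Plk4 was not placed in the rescue order, since it falls before Stil by its 3 replicates with a value and after Stil when the 0 is counted. Spag5 was above 62.1% of tested genes in KO and above 4.67% in rescue, Sass6 above 55.4% and 16.9%, and Cntrob above 51.6% and 51.2%. The ratio of Stil to Sass6 was 0.912 ± 0.133 in KO and 0.731 ± 0.135 in rescue (SD, n = 4 each), a difference within the spread.

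The spread between replicates varied among the genes. Biological replicates of a group differed by a median over the 10 genes of 0.0966 to 0.158 on the log2 scale. The widest such gap was that of Cntrob in the exon 4 rescue group, 0.69, followed by Plk4 in the exon 6 rescue group, 0.53, against its fitted difference of 0.97 in that clone. Cep192 had the widest gap of the exon 4 KO group, 0.38, against its fitted difference of 0.53 in that clone. The technical replicates of the exon 6 clone differed by a median of 0.21 in KO and 0.17 in rescue, no less than the biological replicates did.

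Over both clones 271 of 16866 genes (1.61%) were called higher in KO and 14 (0.083%) lower by limma at an adjusted p under 0.05, and 524 (3.11%) had every KO replicate above every rescue replicate. Of the 10 members 7 were called higher, the same 7 whose genotypes did not overlap, namely Plk4, Stil, Sass6, Cep152, Cep192, Pcnt and Spag5. Because the members were chosen on this contrast, nothing is read from that count. Without either exon 6 KO replicate or either exon 6 rescue replicate 5 were called, as Cep192 and Pcnt no longer passed. With no minimum level 4 were called, without Plk4, Cep192 and Pcnt.

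In the exon 6 clone alone 1.24% of 15301 genes were called higher, and 5 members were, Stil, Sass6, Cep152, Pcnt and Spag5. With the replicate number as a block only Stil and Spag5 of them passed. In the exon 4 clone alone none of 18751 genes (0%) was called higher by limma after adjustment, while 426 were higher at an unadjusted p under 0.05, and no member was called. For Plk4 the fit of this clone counts the rescue replicate listed at 0. The fitted differences in the exon 4 clone were widest at 1.27 (SE 0.23) for Plk4, 0.95 (SE 0.21) for Stil, 0.96 (SE 0.19) for Sass6 and 1.33 (SE 0.19) for Spag5. Beside them stood 0.97 (SE 0.21), 1.29 (SE 0.13), 1.25 (SE 0.13) and 1.70 (SE 0.11) in the exon 6 clone. For Cep152 they were 0.64 (SE 0.20) in the exon 4 and 0.92 (SE 0.11) in the exon 6 clone. Cep192 had 0.53 (SE 0.22) and 0.82 (SE 0.12), and Pcnt 0.48 (SE 0.18) and 0.82 (SE 0.11). Cenpj had 0.07 (SE 0.19) and 0.42 (SE 0.12), Cep135 0.07 (SE 0.20) and 0.26 (SE 0.12), and Cntrob -0.04 (SE 0.27) and 0.13 (SE 0.11).

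The KO effect was also compared between the clones. This comparison is built from the KO against rescue values that the choice of members used, so it is a description for the members. The difference between the clones in the KO effect ran from -0.30 (SE 0.32) for Plk4 to 0.37 (SE 0.18) for Spag5. That of Plk4 counts the exon 4 rescue replicate listed at 0. The effect was larger in the exon 6 clone for 9 of the 10 genes, and for 76 of 96 tested other centrosome and spindle pole genes. The median of all genes was itself 0.06, and -0.02 with quantile normalization, so nothing about the members is read from that count. By limma after adjustment 0% of the 16866 genes were called, with 685 under an unadjusted p of 0.05, and so no member was called. The errors are wide enough that a difference of 0.3 between the clones could not be told from none. Rescue Lin37 was 2.33 ± 0.298 RPKM in the exon 4 clone and 4.84 ± 0.119 RPKM in the exon 6 clone (SD, n = 2 each). Whether that level bears on the KO effect was not tested.

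Between the clones themselves, over both genotypes, 6.84% of genes were called higher and 6.71% lower in the exon 6 clone, and none of the 10 members was by limma after adjustment. By limma Cenpj differed by -0.28 (SE 0.11, adjusted p = 0.123), Cep152 by -0.24 (SE 0.11, adjusted p = 0.168) and Spag5 by 0.27 (SE 0.11, adjusted p = 0.126). Of the 10 members 2, Cenpj and Spag5, were under an unadjusted p of 0.05. So were 5211 of all 16866 genes, and nothing about the members is read from the 2. With quantile normalization in place of the median ratio Spag5 passed, at 0.41 (SE 0.11, adjusted p = 0.0390 by limma). The other 7 members lay between -0.09 and 0.14, where the median of all genes was -0.05 and, with RPKM as deposited, 0.51.

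**Figure D4:**
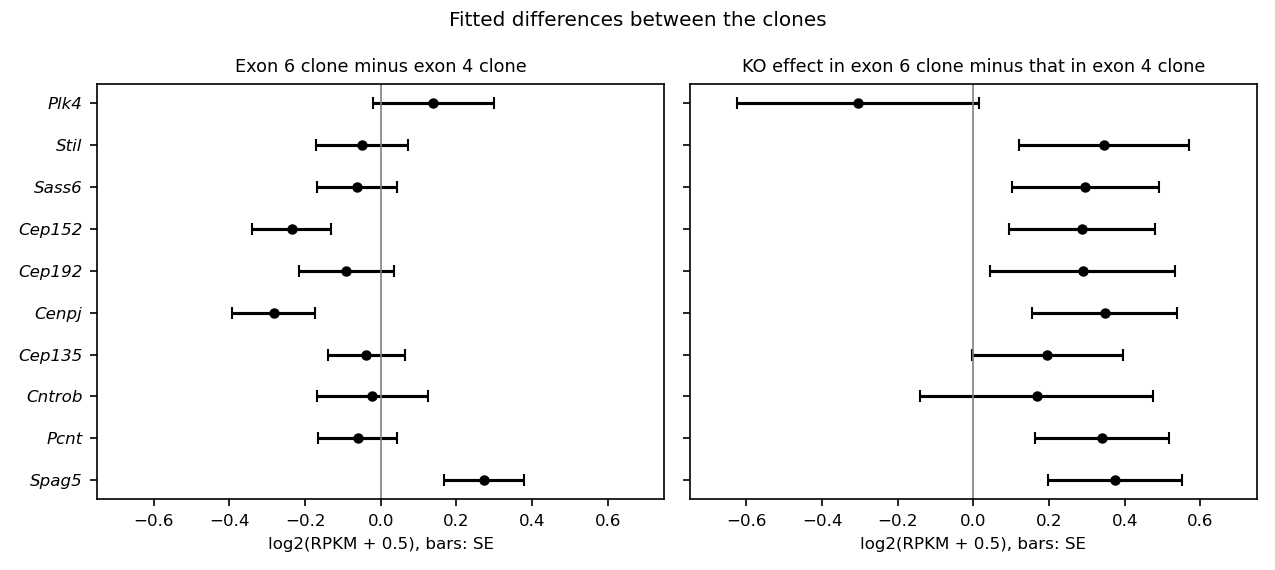
Fitted differences between the clones for the 10 genes on the log2(RPKM + 0.5) scale, with SE bars, for the level (left) and for the KO effect (right). The level differences run from -0.28 (Cenpj) to 0.27 (Spag5). Those of the KO effect are above 0 for every gene but Plk4, where the median of all genes is 0.06. The Plk4 value counts an exon 4 rescue replicate listed at 0.

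Among other genes of the centrosome and the spindle pole, 99 in 7 lists, 96 passed the filter on low values and 18 rose in KO over both clones while none fell (limma, adjusted p under 0.05), which is 18.8% beside 1.61% of all genes. None of the 18 overlapped between KO and rescue libraries, which makes 4 of 4 pairs higher as well, and nothing further is read from this. By replicates 3.11% of all genes were wholly higher in KO. Genes of the lists that were not called, such as Tube1, Kif24 and Aspm, did not overlap between libraries either. The median difference of the 96 was 0.07 and that of all genes -0.03. These lists were drawn up with results of these data known, and Cdk5rap2 stands in 2 of them. Without either exon 6 KO replicate 11 of the 18 passed.

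Of 34 further genes for centriole duplication and assembly, 8 rose and the median difference was 0.16. They were Tedc1 (1.41, SE 0.11, adjusted p = 0.000352 by limma) and Tedc2 (0.74), partners of the delta- and epsilon-tubulins that stabilise the triplet microtubules, Wdr62 (1.34), a spindle pole protein, Poc1a (0.74), which strengthens the centriole wall, Mcph1 (0.65), Wdr90 (0.62), which joins the triplets in the inner scaffold, Cep295 (0.59), which converts a centriole into a centrosome, and Ccdc77 (0.57). Tedc1 stood at 1.17 ± 0.153 RPKM in KO and 0.130 ± 0.0528 RPKM in rescue (SD, n = 4 each). Mdm1 was nearest to no change, at 0.371 ± 0.150 and 0.365 ± 0.0893 RPKM, and Cetn3, the centrin with the highest level of the list, was 3.97 ± 0.732 and 3.28 ± 0.534 RPKM (SD, n = 4 each, adjusted p = 0.623 by limma).

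The lists of the pericentriolar material, the appendages, the satellites and the linker held 3 calls between them, beside 1.61% of all genes. Of 16 tested genes of the pericentriolar material and the gamma-tubulin ring 1 rose, Cep55 (1.30), which acts in abscission at the end of cytokinesis, and the median was 0.02. Tubg1, the gamma-tubulin of the ring, was 1.36 ± 0.247 RPKM in KO against 1.39 ± 0.244 RPKM in rescue, and Cep170, the most abundant of the list, 2.63 ± 0.276 and 2.88 ± 0.431 RPKM (SD, n = 4 each). Among 11 genes of the centriole appendages 1 rose, Cep128 (1.05), a subdistal appendage protein, with a median of -0.02, while Nin stood nearest to no change at 0.02 and Fbf1, the most abundant, at 0.07. None of 12 genes of the centriolar satellites was called by limma, where 2 were under an unadjusted p of 0.05, and their median was -0.02, with Cep290 at -0.01 and the abundant Ccdc66 at 0.07. Of 6 genes of the linker that holds centrosomes together 1 rose, Nek2 (1.37), the kinase that dissolves the linker before mitosis, at 0.973 ± 0.261 RPKM in KO against 0.0630 ± 0.0225 RPKM in rescue (SD, n = 4 each), and Ctnnb1 was at -0.01.

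The augmin complex and the list of Spag5 partners and spindle pole genes held 7 calls, beside 1.61% of all genes, and shares were not tested between lists. In the augmin complex, which branches spindle microtubules, 2 of 8 subunits rose, Haus6 (1.09, SE 0.14, adjusted p = 0.00384 by limma) and Haus3 (1.01, SE 0.15, adjusted p = 0.00955), and the median was 0.46. Haus2 was nearest to no change at 0.05 and Haus7, the most abundant, at -0.11. Of 10 partners of Spag5 and spindle pole genes 5 rose, and the median was 0.79. Tacc3 (1.94) and Tpx2 (1.84), spindle assembly factors that work with the kinase Aurora A, were the widest differences of the 96 tested genes. Their levels were 3.04 ± 0.262 and 2.17 ± 0.169 RPKM in KO against 0.431 ± 0.166 and 0.249 ± 0.117 RPKM in rescue (SD, n = 4 each). Ckap2 (1.53), Knstrn (1.36), a partner of Spag5 at kinetochores, and Hmmr (1.02) rose as well, and Numa1, an abundant spindle pole protein, was at -0.01 with 8.76 ± 0.756 and 8.80 ± 0.758 RPKM.

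**Figure D5:**
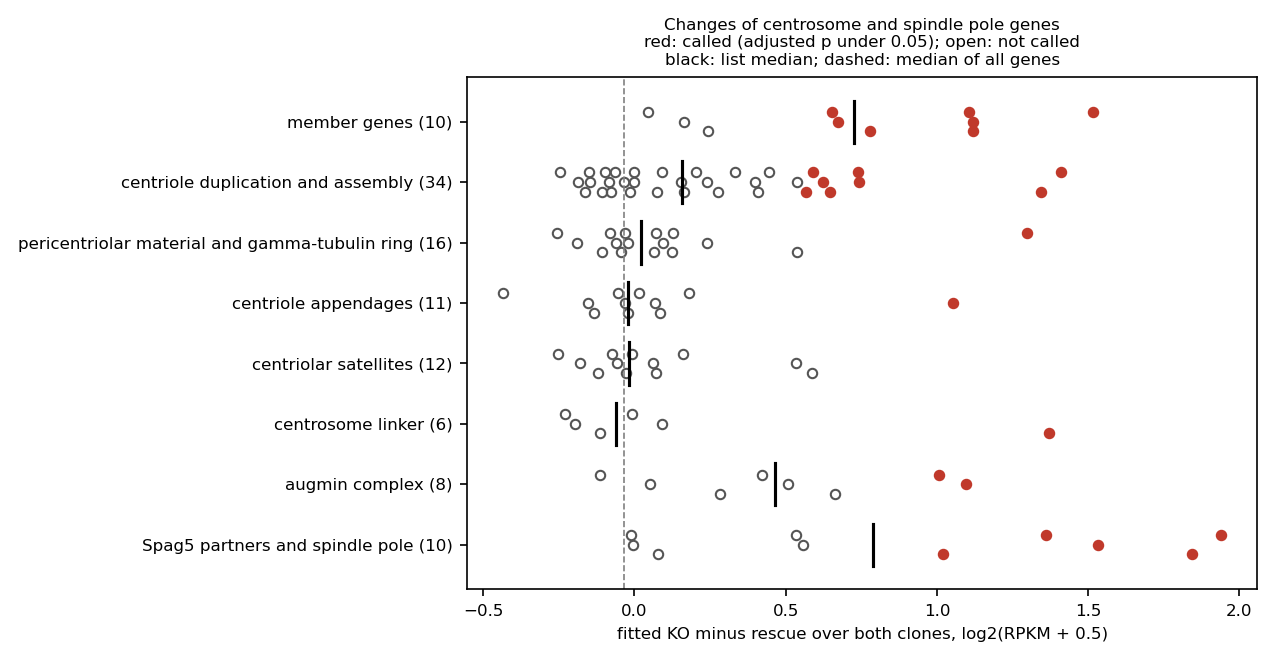
Fitted KO minus rescue over both clones, on the log2(RPKM + 0.5) scale, for the members and for the tested genes of each list, with called genes in red, list medians as black bars and the median of all genes as a dashed line. The called genes are all on the right, up to 1.94 for Tacc3, and the medians of the appendage, satellite and linker lists lie below 0.

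Of the proliferation markers Top2a and Mki67 were called higher in KO without overlap of the libraries, while Pcna overlapped and was not called. Top2a was 4.27 to 7.21 RPKM in the KO libraries and 0.5002 to 1.64 RPKM in the rescue libraries (2.01, SE 0.16, adjusted p = 0.000352 by limma), Mki67 0.628 to 1.31 and 0.0492 to 0.308 RPKM (1.13, SE 0.17, adjusted p = 0.00956) and Pcna 0.883 to 1.35 and 0.428 to 0.992 RPKM (0.44, SE 0.12, adjusted p = 0.176). In bulk RNA more cells in the cell cycle and more RNA per cell cannot be told apart, and the part of cycling cells in the differences of the centriole genes was not tested.

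The 5 protein-coding genes whose level followed Plk4 most closely over the 8 replicates, by Pearson r among 11363 genes compared, were Ncapd2 (r = 0.984), Cenpm (0.982), Tonsl (0.977), Hdgf (0.976) and Nup93 (0.976). Ncapd2 is a condensin subunit, Cenpm a centromere protein and Tonsl a factor of replication fork repair. The points share the division into KO and rescue and include the Plk4 value listed at 0. These correlations therefore describe the 8 replicates and carry no test. Among the members Spag5 was placed 78, Sass6 129 and Stil 160 in that order, Pcnt 245, Cep192 348 and Cep152 352, and Cep135 1270, Cenpj 1830 and Cntrob 2412. Cenpm was 2.13 ± 0.337 RPKM in KO against 0.312 ± 0.227 RPKM in rescue, whereas Hdgf was 8.67 ± 0.364 and 6.42 ± 0.730 RPKM (SD, n = 4 each).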

How the data were processed

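RNA-seq libraries of 4 groups were compared, taken from the sample labels. Per the study's methods, the authors clipped adapters with cutadapt, mapped reads to mm10 with segemehl, counted them with rnacounter against GENCODE vM5 and deposited RPKM values per gene and library. The authors' processing notes also name Picard 1.89. Which reads the library size counts is not stated in the sources used here. Low values were whole multiples of a read (tolerance 0.05) in only 25.7% to 42.9% of cases. That check used gene lengths from GENCODE M21 and not those of vM5, so it cannot tell whether counts are recoverable. Reads were not recovered, depth is unknown and count tests were not run.

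From the deposited values, libraries were rescaled by the median ratio over 8523 genes of at least 1 RPKM, technical replicates were averaged and genes that averaged 0.1 RPKM or more were tested on log2(RPKM + 0.5) with limma 3.58.1 (R 4.3.3, eBayes with trend) with clone as covariate, and Benjamini-Hochberg adjustment. The scripts were tested on simulated data. Replicates are cultures the labels call biological, not said to be grown on separate days, so p-values cover the spread between these samples. Names and positions came from GENCODE M21 (44585 of 45232 identifiers), promoters from RefSeq GRCm38.p6. Python 3.11.15, pandas 2.3.3, numpy 2.4.6 and matplotlib 3.10.9 were used. Named were the members, Lin37, markers, called genes of the lists with the gene nearest to no change and the most abundant gene of each, and the 5 genes most like Plk4. The members and lists were chosen with earlier results of these data known. Alternatives were other pseudocounts, filters, scalings, handling of technical replicates, covariates and omission of each replicate.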

Additional observations from a re-analysis of the deposited data

Results flagged for a closer look

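Among the 20 sets of 4 replicates examined (10 genes, KO and rescue), 1 held a replicate far from the others, and chance flags about 1 in 20. Sass6 in KO replicate 1 of the exon 6 clone was 1.18 RPKM, and its gap to the nearest replicate was 0.834 of the range of the 4 KO replicates. The Sass6 difference between KO and rescue without each replicate in turn lay between 1.03 and 1.15.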

How the results depend on the processing

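Over both clones Stil, Sass6, Cep152 and Spag5 were called under all 19 alternatives in which they were tested, Plk4 under 18, Pcnt under 15 of 20 and Cep192 under 11 of 19, always higher in KO. A pseudocount of 0.1 or 1 moved the Plk4 difference to 2.18 or 0.72. The counts over both clones (main values: 271 genes higher, 14 lower, 18 other centrosome genes and 7 members higher) were 171, 6, 10 and 4 with no minimum level. With a minimum of 1 RPKM, where only Pcnt of the members was tested, 93 genes, 6 centrosome genes and 1 member were higher, and with RPKM as deposited 875 and 31. Genes lower numbered 6 without the clone covariate and 6 with exon 6 replicate 2 from its second library alone, an alternative added after the data were seen. Without each replicate in turn these counts ran from 174 to 265, 4 to 16, 11 to 17 and 5 to 7. In the exon 6 clone (189 genes higher, 10 lower, 14 centrosome genes and 5 members higher) all 4 counts were 0 with no minimum level, 67, 5 and 1 were higher with a minimum of 1 RPKM, and with RPKM as deposited 10040 genes, 91 centrosome genes and all 10 members were higher and 47 genes lower, where the scaling moved the median of all genes by 0.69. In the exon 4 clone 1 gene was lower with a minimum of 1 RPKM. With the replicate block 27 genes were lower over both clones, 2 members higher in the exon 6 clone and 1 gene lower in the exon 4 clone, and 276 genes and 7 members were higher over both clones. Same-numbered KO and rescue replicates deviated together (correlation 0.477 in the exon 4 and 0.360 in the exon 6 clone over 7550 genes), but the labels do not say that they were grown together. Quantile normalization called 1 member, Spag5, different between the clones (0.41). Leaving out a replicate called 0 members there. The cause of these shifts was not tested.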
